A study of Homo sapiens with 6 samples.

Results

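The genes described here encode the core of transforming growth factor beta (TGF-beta) signalling: the ligands TGFB1, TGFB2 and TGFB3, the receptors TGFBR1, TGFBR2 and TGFBR3, the latency proteins LTBP1, LTBP2 and LTBP3, and the inhibitor SMAD7. They were found by gene symbol, and all 10 were present among the 20610 symbols of the read count table. Polyadenylated RNA had been sequenced from HT1080, an established line of human fibrosarcoma cells, in 3 wild-type libraries (WT) and 3 libraries of cells with PGK1 knocked out by CRISPR-Cas9 (KO). PGK1 is the phosphoglycerate kinase of glycolysis. No treatment other than the edit is named, and all 6 libraries carry the same batch label. Neither the guide nor whether the KO cells are 1 clone is given in the sources used here, so the loss of PGK1 cannot be told apart from other differences between the cell populations. Whether replicate libraries stem from separate cultures is not labelled, so p-values here cover the spread among libraries alone, and that spread may be technical.

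TGF-beta is made as a precursor and is secreted in a latent form, in which the growth factor stays bound to its own propeptide. Latent TGF-beta binding proteins tether this complex to fibronectin and fibrillin in the matrix, and integrins, thrombospondin or proteases release the active ligand. The ligand assembles TGFBR2 with TGFBR1, which phosphorylates SMAD2 and SMAD3, and SMAD7 is a feedback inhibitor of the receptor. In fibroblasts and sarcoma cells this route is known for the control of matrix genes.

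Library totals were 30175903 to 47047186 counts. Levels are given in CPM, counts scaled to a common library size by TMM, a correction for differences in library composition. The targeted PGK1 had a level of 1427 ± 19.9 in WT and of 155 ± 8.53 in KO (mean CPM ± SD, n = 3 each), lower in 3 of 3 KO libraries. The labelled connective tissue origin was checked with marker genes. Of 7 tested mesenchymal markers 6 fell and none rose, where 76.4% of all genes tested were called and 36.3% were lower. The summed level of all 8 listed was 10605 to 11040 CPM in WT and 2851 to 3422 CPM in KO, with the vimentin gene VIM at 7871 ± 196 and 1938 ± 221 CPM (SD, n = 3 each) and THY1 near 0 in both groups. The summed level of 6 epithelial markers was 1.47 to 2.53 CPM in WT and 4.19 to 5.07 CPM in KO, with EPCAM at 0 in all 6 libraries. Of the 3 tested epithelial markers 2 rose and 1 fell, all at low levels. Mean ESRP1 rose from 0.0367 to 2.63 CPM and CDH1 from 0.0489 to 0.964 CPM, while CLDN4 fell from 1.88 to 1.05 CPM. Leukocyte markers summed to 348 to 363 CPM in WT and 109 to 127 CPM in KO, nearly all of it CD68, and PTPRC had no count in WT and at most 0.219 CPM in KO. Endothelial markers summed to 10.4 to 12.2 CPM in WT and 2.96 to 3.90 CPM in KO, mostly PECAM1. The part of these shifts in the results below was not tested. KO library 3 was the one most unlike its replicates, at a chi-square per degree of freedom of 22.4 against KO library 2, where pairs of WT libraries reached 3.75 to 5.79.

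Of the TGF-beta genes, 7 were lower in KO and none passed the test as higher. TGFB1, the main ligand gene, fell to 17.1% of its WT level and LTBP1 to 44.0%. The receptor genes fell to between 53.4% and 66.6%, TGFB2 to 68.3% and LTBP3 to 84.0%. TGFB3, LTBP2 and SMAD7 did not pass the test. All 10 genes passed the filter on low counts. Of the 13249 genes tested, 76.4% were called (edgeR quasi-likelihood F-test, Benjamini-Hochberg adjusted p under 0.05), 40.0% as higher and 36.3% as lower in KO. Of the 10 genes 7 were called, all lower, so that the share called was not above that of all genes. A change of at least 1 on the log2 scale was called for 2 of the 10 genes, TGFB1 and LTBP1, and for 31.0% of all genes tested. The median log2 fold change was -0.57 over the 10 genes and 0.05 over all genes tested. The WT and KO libraries did not overlap for 9 of the 10 genes, LTBP2 being the exception, against 79.2% of all genes tested. Without KO library 3, 7 of the 10 were again called, all lower. In a bulk library, fewer cells with a transcript and less transcript per cell cannot be told apart.

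**Figure D1:**
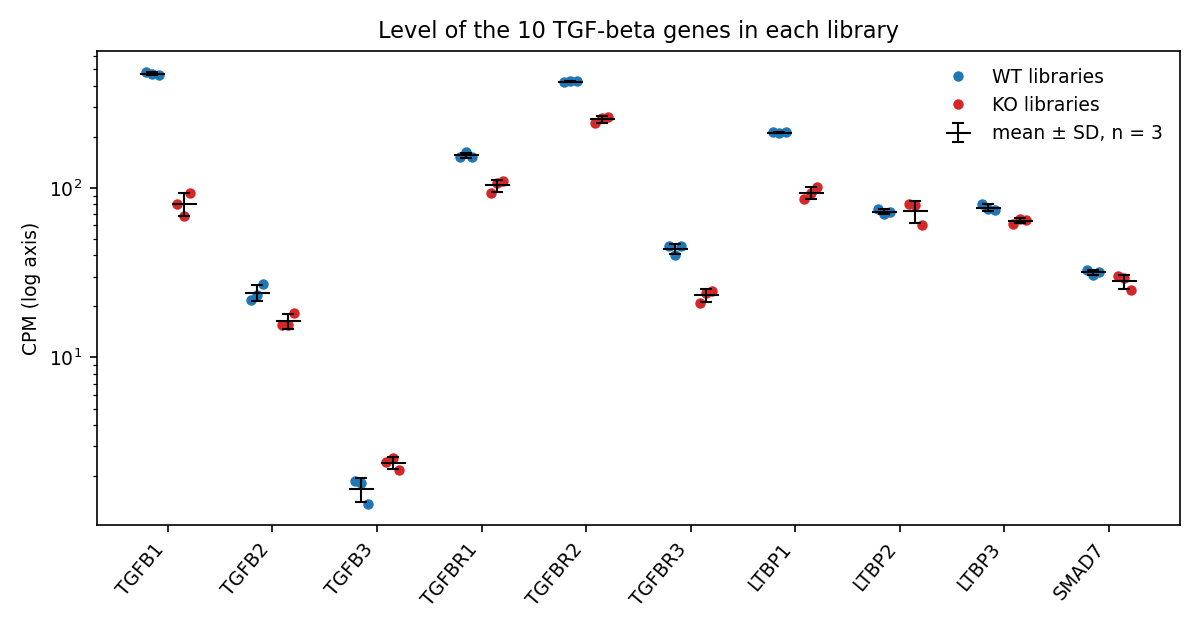
Level of each gene in CPM (log axis) in the 3 WT and 3 KO libraries, with the mean and SD (n = 3). The KO points of TGFB1 lie between 68.0 and 93.6 CPM and its WT points between 465 and 480 CPM, while the points of LTBP2 overlap.

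Among the ligand genes, TGFB1 showed the largest fall of the 10 genes. It was at 480, 470 and 465 CPM in WT libraries 1, 2 and 3, and at 80.2, 68.0 and 93.6 CPM in KO libraries 1, 2 and 3. All KO libraries lay far below all WT libraries, and KO library 2 was the lowest. The log2 fold change was -2.55 (SE 0.101, adjusted p = 8.20e-09, edgeR quasi-likelihood test), on 2483 to 20489 counts a library. Only 6.20% of the genes tested had a larger absolute log2 fold change.

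TGFB1 lies on the minus strand of chromosome 19 at positions 41301587 to 41353911 (GRCh38, GENCODE 29). The opposite-strand gene HNRNPUL1 shares 6.64% of its exon bases, and the strand setting of the counting is not given in the sources used here. The window from 250 bases before to 50 bases after its RefSeq start is shown because this gene moved most. It lies at chr19:41353873-41354172 (GRCh38.p14, minus strand) and is printed 5′ to 3′, with capitals for GGGCGG (a GC box, bound by SP factors), ACGTG and GCGTG (cores of hypoxia response elements) and CAGAC (a SMAD-binding core), searched on both strands.
TGFB1: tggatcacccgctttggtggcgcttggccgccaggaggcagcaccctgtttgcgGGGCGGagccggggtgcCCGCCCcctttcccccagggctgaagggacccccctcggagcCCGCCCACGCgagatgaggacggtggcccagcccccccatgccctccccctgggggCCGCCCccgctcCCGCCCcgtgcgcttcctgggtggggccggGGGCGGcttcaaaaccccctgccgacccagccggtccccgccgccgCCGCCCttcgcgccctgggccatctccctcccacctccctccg
The window was 77.3% G or C, where the median of all RefSeq promoter windows was 58.7%. It held 7 matches to GGGCGG, the outermost beginning at positions -196 and 8 from the gene start, and 1 match to GCGTG at -132, which overlaps the GGGCGG match at -137. No match to CAGAC or ACGTG was found in it. Of 35116 windows of this length, 45.0% held GGGCGG, 36.5% GCGTG, 45.3% CAGAC and 21.4% ACGTG.

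TGFB2, a ligand that needs TGFBR3 for efficient binding, was at 21.8, 23.3 and 27.0 CPM in WT and at 15.5, 15.5 and 18.4 CPM in KO. The groups did not overlap, although both varied, with the third library the highest in each. The log2 fold change was -0.55 (SE 0.10, adjusted p = 0.000156, edgeR). TGFB3, the remaining ligand, was the lowest of the 10 genes, at 1.87, 1.81 and 1.38 CPM in WT and 2.42, 2.55 and 2.17 CPM in KO. Its KO values lay above its WT values, on only 50 to 116 counts a library. The log2 fold change of 0.50 (SE 0.235) did not pass the test with TMM scaling (adjusted p = 0.0663, edgeR), but it did with library size alone (log2 0.72, adjusted p = 0.0128, edgeR) and with upper-quartile scaling (adjusted p = 0.0459, edgeR). Over all settings the lowest adjusted p for TGFB3 was 0.00336, in a limma fit. TGFB2 lies at positions 218346235 to 218444619 of chromosome 1, where a same-strand noncoding gene, TGFB2-OT1, covers 26.6% of its exon bases, so their reads cannot be told apart. TGFB3 lies at positions 75958099 to 75982991 of chromosome 14, and the opposite-strand TGFB3-AS1 shares 3.32% of its exon bases (GRCh38, GENCODE 29).

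The make-up of the ligand transcripts was compared per length, with the FPKM values that the authors deposited, as a share of the 3 ligands' sum in each library. A share within a library does not depend on scaling between libraries. TGFB1 made up 98.1%, 98.0% and 97.8% of the ligand sum in WT and 91.8%, 90.3% and 92.1% in KO. TGFB2 held 1.59% to 2.03% in WT and 6.34% to 7.33% in KO, and TGFB3 0.200% to 0.263% in WT and 1.48% to 2.34% in KO. TGFB1 therefore stayed the main ligand transcript in every library, while its share was lower by 6.59 percentage points in KO. The within-library log2 ratio of TGFB2 to TGFB1 was -5.79 ± 0.18 in WT and -3.77 ± 0.13 in KO (SD, n = 3 each), and that of TGFB3 to TGFB1 was -8.68 ± 0.22 and -5.61 ± 0.35. The groups did not overlap in these shares and ratios (exact 2-sided permutation test, p = 0.1, the smallest that 3 against 3 libraries allow; Benjamini-Hochberg adjusted p = 0.1 over 9 shares and 0.15 over 6 ratios). The summed ligand level was 207 to 211 FPKM in WT and 38.8 to 50.2 FPKM in KO, with no test of the sum.

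The 3 receptor genes all fell, to between 53.4% and 66.6% of WT. TGFBR2, the receptor that binds the ligand first, was at 419, 425 and 426 CPM in WT and at 241, 256 and 261 CPM in KO. The WT libraries were nearly equal and all KO libraries were well below them (log2 fold change -0.74, SE 0.051, adjusted p = 4.07e-09, edgeR). TGFBR1, the kinase that phosphorylates SMAD2 and SMAD3, was at 152, 162 and 152 CPM in WT and at 93.8, 107 and 109 CPM in KO. KO library 1 was the lowest, and the groups did not overlap (log2 fold change -0.59, SE 0.062, adjusted p = 5.96e-07, edgeR). TGFBR3, or betaglycan, a co-receptor that presents TGF-beta, was at 45.1, 40.1 and 45.3 CPM in WT and at 21.0, 24.0 and 24.7 CPM in KO. It showed the largest fall of the receptors, to 53.4% of WT (log2 fold change -0.91, SE 0.082, adjusted p = 9.70e-08, edgeR).

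The proportions among the receptors differed by at most 2.25 percentage points. TGFBR2 held 68.7% ± 0.354 of the summed receptor FPKM in WT and 67.2% ± 0.931 in KO, and TGFBR1 25.4% ± 0.771 and 27.6% ± 0.776 (SD, n = 3 each). TGFBR3 held 5.87% ± 0.440 in WT and 5.13% ± 0.156 in KO. The difference was -1.50 percentage points for TGFBR2, 2.25 for TGFBR1 and -0.75 for TGFBR3. The libraries of the groups did not overlap in these 3 shares (exact permutation test, p = 0.1 each, the smallest possible). The log2 ratio of TGFBR1 to TGFBR2 was -1.44 ± 0.05 in WT and -1.28 ± 0.06 in KO. These values did not overlap (exact permutation test, p = 0.1, Benjamini-Hochberg adjusted p = 0.15). The log2 ratio of TGFBR3 to TGFBR2 was -3.55 ± 0.10 in WT and -3.71 ± 0.06 in KO, and these values did overlap (exact permutation test, p = 0.2, Benjamini-Hochberg adjusted p = 0.24, n = 3 each). These lie on 3 chromosomes: TGFBR1 at positions 99104038 to 99154192 of chromosome 9, TGFBR2 at 30606502 to 30694142 of chromosome 3 and TGFBR3 at 91680343 to 91906335 of chromosome 1 (GRCh38). GENCODE 29 lists no other gene over their exons.

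**Figure D2:**
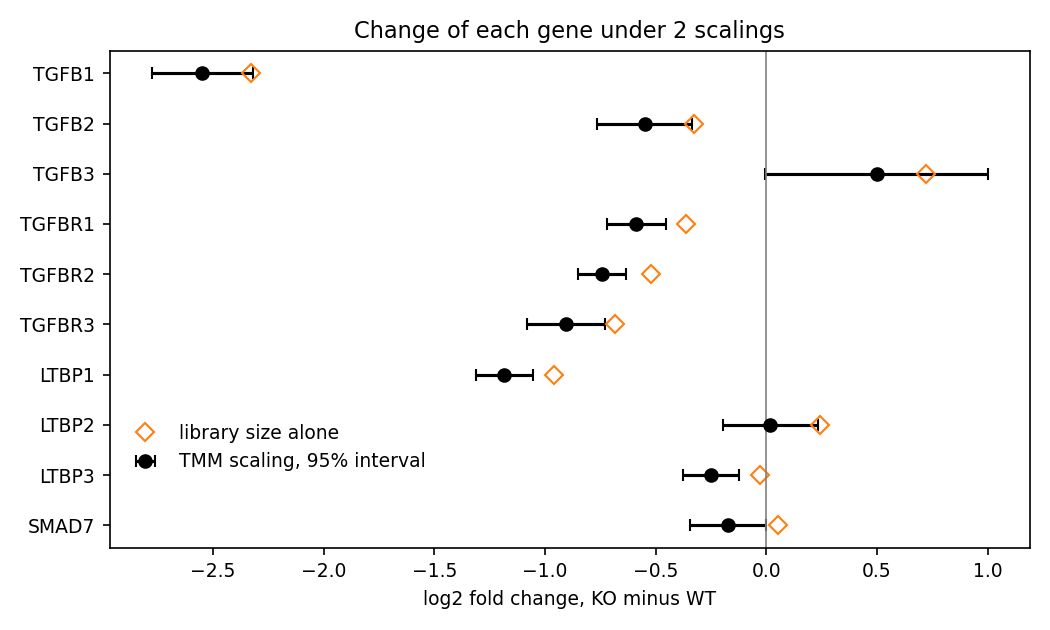
Log2 fold change of each gene, KO minus WT, with TMM scaling and its 95% interval (black) and with library size alone (orange diamonds). TGFB1 stands apart at -2.55, and LTBP3, LTBP2 and SMAD7 lie near 0, with SMAD7 on the other side of 0 with library size alone.

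The latency proteins moved unequally. LTBP1, which anchors latent TGF-beta in the matrix, was at 213, 210 and 212 CPM in WT and at 85.5, 93.7 and 101 CPM in KO. Its WT values were nearly equal and its KO values were all less than 50% of them (log2 fold change -1.18, SE 0.060, adjusted p = 1.39e-10, edgeR). LTBP2, a matrix protein that is not known to bind latent TGF-beta directly, was at 74.9, 70.0 and 71.6 CPM in WT and at 80.0, 78.8 and 60.2 CPM in KO. KO libraries 1 and 2 lay above the WT values and KO library 3 below them, so the groups overlapped. The log2 fold change was 0.02 with a 95% interval of -0.20 to 0.23 (adjusted p = 0.870, edgeR), and 0.09 without KO library 3 (adjusted p = 0.107, edgeR). LTBP3, another carrier of latent TGF-beta, was at 80.5, 74.6 and 73.9 CPM in WT and at 61.6, 65.7 and 65.0 CPM in KO. The groups lay close together without overlap (log2 fold change -0.25, SE 0.059, adjusted p = 0.00132, edgeR). With library size alone this fall was not called (log2 -0.03, adjusted p = 0.659, edgeR). LTBP1 lies at positions 32946972 to 33399509 of chromosome 2, LTBP2 at 74498170 to 74612378 of chromosome 14 and LTBP3 at 65538805 to 65558930 of chromosome 11 (GRCh38, GENCODE 29). Opposite-strand noncoding genes share 3.40% of the exon bases of LTBP1 and 2.28% of those of LTBP2.

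By FPKM, LTBP1 held 58.2%, 59.5% and 59.8% of the sum of LTBP1, LTBP2 and LTBP3 in WT and 39.2%, 40.6% and 44.9% in KO. LTBP3 held 27.3% ± 0.751 in WT and 36.6% ± 0.459 in KO, and LTBP2 was at 13.5% ± 0.174 in WT and 21.8% ± 3.43 in KO (SD, n = 3 each). The groups did not overlap in any of the 3 shares (exact permutation test, p = 0.1, the smallest possible). The log2 ratio of LTBP1 to LTBP3 was 1.12 ± 0.06 in WT and 0.18 ± 0.08 in KO. That of LTBP2 to LTBP3 was -1.01 ± 0.03 and -0.76 ± 0.25, with overlap (exact permutation test, p = 0.4, n = 3 each).

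**Figure D3:**
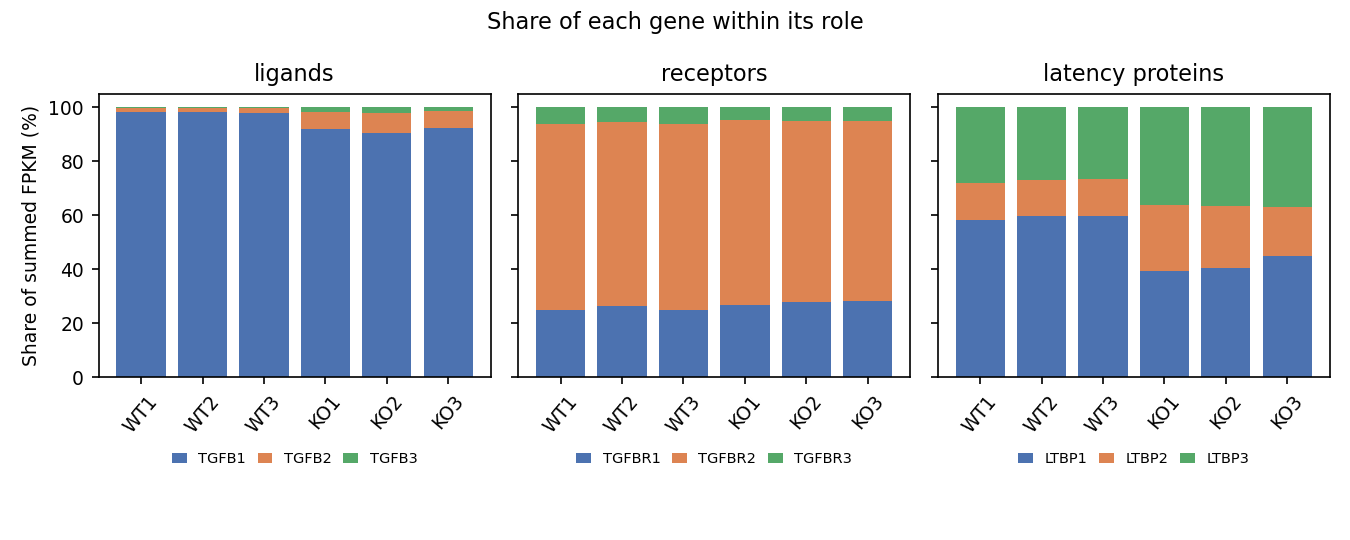
Share (%) of each gene in the summed FPKM of its role, in each library. LTBP4 is not in the latency sum. TGFB1 fills over 90% of the ligand bar in every library, the receptor bars are nearly alike, and the LTBP1 part is smaller in the KO libraries, at 39.2% to 44.9%.

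The start windows of LTBP1, which fell, and LTBP2, which did not pass the test, are shown for comparison, with capitals as for TGFB1. The LTBP1 window is that of the first of 3 RefSeq starts, at chr2:32946703-32947002 (plus strand), and the LTBP2 window is at chr14:74612188-74612487 (minus strand), both in GRCh38.p14.
LTBP1: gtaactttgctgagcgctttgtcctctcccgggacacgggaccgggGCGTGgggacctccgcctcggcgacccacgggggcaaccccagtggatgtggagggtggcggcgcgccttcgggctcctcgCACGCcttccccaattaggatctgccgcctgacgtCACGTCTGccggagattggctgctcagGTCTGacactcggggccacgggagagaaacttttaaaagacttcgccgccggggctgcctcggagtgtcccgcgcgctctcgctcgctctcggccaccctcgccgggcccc
LTBP2: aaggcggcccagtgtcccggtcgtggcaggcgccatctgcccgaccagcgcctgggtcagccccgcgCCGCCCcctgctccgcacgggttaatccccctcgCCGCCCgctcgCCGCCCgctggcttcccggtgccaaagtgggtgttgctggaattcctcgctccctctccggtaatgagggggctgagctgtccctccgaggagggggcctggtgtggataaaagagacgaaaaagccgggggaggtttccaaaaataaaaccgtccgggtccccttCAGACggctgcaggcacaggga
The LTBP1 window held CAGAC at -85 and -61, ACGTG at -88, which overlaps the first of these, and GCGTG at -204 and -123, with no GGGCGG. The LTBP2 window held GGGCGG at -183, -149 and -138 and CAGAC at 29, with neither hypoxia core. The G or C content was 68.7% and 67.0%. Over all 24 RefSeq start windows of the 10 genes, 13 held CAGAC, 7 ACGTG, 11 GCGTG and 10 GGGCGG. In the same order, 45.3%, 21.4%, 36.5% and 45.0% of all RefSeq windows held them. TGFBR1 alone has 8 of the 24 windows, and some of its windows overlap, so matches are counted more than once. By gene, 7 had CAGAC, 6 ACGTG, 7 GCGTG and 6 GGGCGG in at least 1 window. The read counts do not show which start was used.

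SMAD7, the feedback inhibitor and itself a TGF-beta target, was at 32.8, 30.6 and 31.8 CPM in WT and at 30.0, 29.2 and 25.0 CPM in KO. The KO values lay just below the WT values, with KO library 3 the lowest. The log2 fold change was -0.17 with a 95% interval of -0.35 to 0.00033 (adjusted p = 0.0647, edgeR). Its sign depended on the scaling, with 0.05 for library size alone (adjusted p = 0.595, edgeR). It was called lower with RLE scaling (log2 -0.20, adjusted p = 0.0303, edgeR) and with DESeq2 (log2 -0.20, adjusted p = 0.0415). The same held without the filter on low counts (log2 -0.18, adjusted p = 0.0493, edgeR). With 1 library left out its adjusted p ranged from 0.0279 to 0.156 (edgeR).

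Per length, the order of the levels changed at the top. In WT the order of mean FPKM was TGFB1 at 205 ± 2.42, TGFBR2 at 81.9 ± 1.08, LTBP1 at 34.4 ± 0.276, TGFBR1 at 30.2 ± 1.19 and LTBP3 at 15.9 ± 0.686 (SD, n = 3 each). SMAD7 at 10.8 ± 0.353, LTBP2 at 7.86 ± 0.238, TGFBR3 at 6.99 ± 0.467, TGFB2 at 3.73 ± 0.426 and TGFB3 at 0.505 ± 0.0791 followed, and no neighbours in this order overlapped between libraries. In KO TGFBR2 was first at 57.1 ± 1.90 and TGFB1 second at 40.8 ± 5.61, and TGFBR1 at 23.5 ± 1.71 stood before LTBP1 at 17.7 ± 1.16. LTBP3 at 15.6 ± 0.574, SMAD7 at 11.2 ± 1.30, LTBP2 at 9.30 ± 1.60, TGFBR3 at 4.36 ± 0.323, TGFB2 at 2.97 ± 0.230 and TGFB3 at 0.835 ± 0.0847 kept their places. The values of SMAD7 and LTBP2 overlapped across the KO libraries, but within each KO library SMAD7 was the higher. In KO libraries 1, 2 and 3 SMAD7 was at 12.1, 11.8 and 9.71 FPKM and LTBP2 at 10.3, 10.2 and 7.45 FPKM. FPKM takes the library total as its scale and the authors' fixed length for each gene.

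The other genes of the pathway were counted on 7 lists, whose counts stand beside 76.4% called, 40.0% higher and 36.3% lower among all genes tested. The latency anchors and activators were mostly lower. Among 13 tested genes 12 fell, none rose and 1 missed the threshold (92.3% called, median log2 fold change -1.43). Without the filter on low counts, 12 of the list were called lower and 1 higher. THBS1, thrombospondin 1, an activator of latent TGF-beta, fell from 898 ± 8.31 to 73.2 ± 4.87 CPM (SD, n = 3 each). MMP14, a membrane protease, fell from 5951 to 756 CPM and ITGB3, an integrin subunit, from 41.7 to 2.62 CPM. FBN1, the fibrillin that holds LTBPs in the matrix, fell from 302 to 46.3 CPM. LTBP4, named after its values were seen as the one remaining LTBP, fell from 137 ± 5.40 to 50.8 ± 3.09 CPM (log2 fold change -1.43, SE 0.061, adjusted p = 2.09e-11, edgeR).

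Antagonists and binders of the ligands were lower as well. All 7 that were tested fell (median log2 fold change -1.97), and 3 of the 10 listed were too low to test. Without the filter on low counts, 7 of the list were called lower and 1 higher. NOG, the BMP antagonist noggin, fell from 222 ± 6.94 to 21.6 ± 1.79 CPM (SD, n = 3 each). FSTL1, a secreted follistatin-like protein, fell from 253 to 77.4 CPM. FST, the activin-binding follistatin, fell from 104 to 26.7 CPM, and its relative FSTL3 was at 56.3 CPM in WT and 13.8 CPM in KO.

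SMAD proteins and their partners moved both ways. Among 11 tested genes 5 rose, 5 fell and 1 missed the threshold (90.9% called, median 0.03). SMAD3, a receptor-activated SMAD, fell from 193 ± 2.17 to 64.8 ± 1.84 CPM (SD, n = 3 each). SMAD9, a BMP-branch SMAD, fell from 6.52 to 1.99 CPM. ZFYVE9, or SARA, which brings SMADs to the receptor, rose from 74.3 to 117 CPM, and the SMAD corepressor SKIL from 43.2 to 70.1 CPM.

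Of the genes of receptor turnover and feedback, 55.6% were called, against 76.4% of all genes tested. Among 9 tested genes 1 rose, 4 fell and 4 missed the threshold. Scaled by library size alone, 5 were called higher and 4 lower. The ubiquitin ligase SMURF2 fell from 121 to 43.9 CPM, the deubiquitinase USP4 from 124 to 65.3 CPM and the ubiquitin ligase NEDD4L from 1318 to 823 CPM. BAMBI, a pseudoreceptor that blocks TGF-beta signalling, rose from 2.76 to 8.13 CPM. The listed FKBP1A and GDF5, on chromosome 20, had at most 1 count and were not read as expression.

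The other receptors and ligands of the superfamily showed no common direction. Among 10 receptors tested 2 rose, 5 fell and 3 missed the threshold, so that 70% were called, near the 76.4% of all genes. Scaled by library size alone, 4 were called higher and 3 lower. The type I BMP receptor BMPR1B rose from 5.27 to 19.4 CPM and the activin receptor ACVR2A from 13.6 to 30.9 CPM. The co-receptor endoglin, ENG, fell from 325 to 182 CPM and its partner ACVRL1 from 10.3 to 3.45 CPM. Among 8 ligands tested 3 rose, 3 fell and 2 missed the threshold, or 75% called. INHBE fell from 59.3 to 33.1 CPM, the stress-induced GDF15 rose from 954 to 1422 CPM and BMP6 from 25.0 to 34.6 CPM. BMP8B, at 0.0427 CPM in WT and 0.401 CPM in KO, is uncertain because it has a near-identical copy.

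Textbook target genes of TGF-beta moved both ways. Among 18 tested genes 6 rose, 9 fell and 3 missed the threshold (median log2 fold change -0.66), and the 83.3% called is near the 76.4% of all genes. CCN2, listed as CTGF, a matricellular protein, fell from 3484 ± 48.3 to 251 ± 8.31 CPM (SD, n = 3 each). BHLHE40, a transcription factor, fell from 367 to 109 CPM. TNC, the matrix protein tenascin C, rose from 49.9 ± 2.39 to 210 ± 10.3 CPM. The named genes of these lists that rose or fell, BMP8B aside, passed edgeR's quasi-likelihood test with adjusted p from 1.72e-15 to 8.23e-05. BMP8B passed the same test as higher with adjusted p = 0.00157. Other inputs than TGF-beta act on these genes, and their part was not tested.

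**Figure D4:**
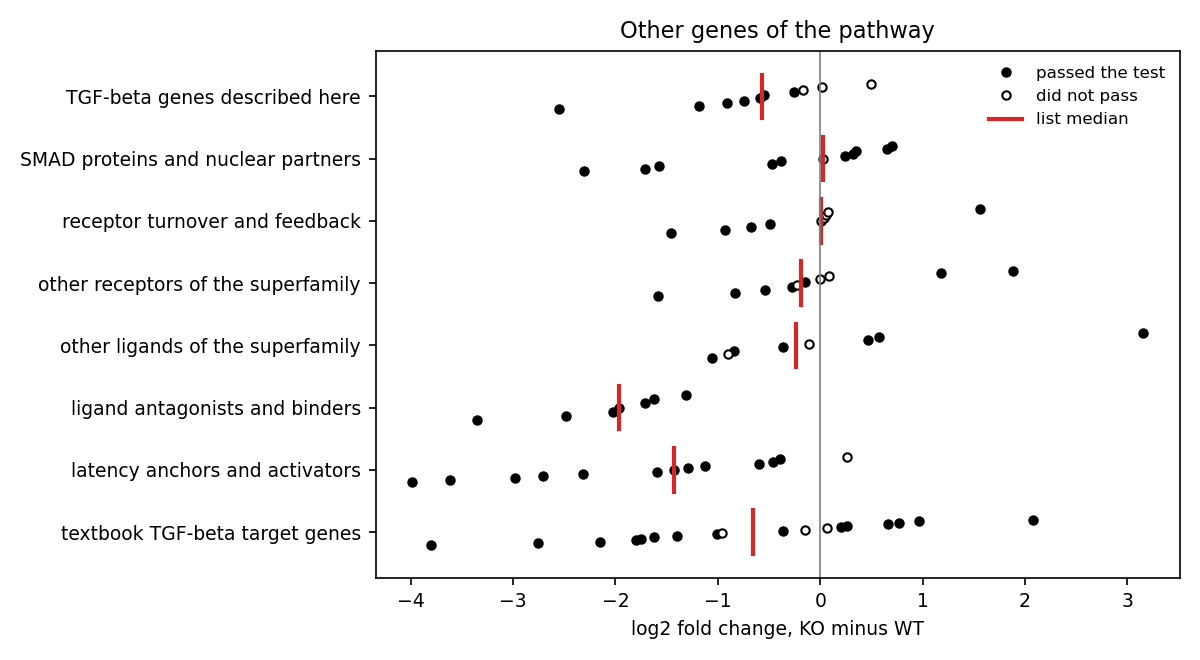
Log2 fold change, KO minus WT, of each tested gene on the 7 lists and of the 10 genes described here (top line). Filled points passed the test, open points did not, and red bars are list medians, which are lowest for the ligand antagonists (-1.97) and the latency anchors (-1.43) and near 0 for the SMAD proteins (0.03).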

How the data were processed

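The authors deposited read counts per gene symbol and FPKM values for the same 20610 symbols. Reads were handled with fastp and HISAT on hg38, per the submitters' processing notes, which give no versions. For the counting tool, annotation and strand setting, nothing is given in the sources used here. In each of the 17521 genes that had reads, the deposited FPKM equals the count over the library total and over 1 length for that gene (relative tolerance 1e-06), so it adds no independent measurement and was used only to compare genes per length.

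Counts were tested with edgeR 4.0.16 in R 4.3.3 (TMM, filterByExpr, robust quasi-likelihood F-test, no covariate); p-values were adjusted by Benjamini-Hochberg over 13249 genes, with a threshold of 0.05. The fit was tested on simulated data. CPM is relative to the library total times the TMM factor. SE is the log2 fold change over the square root of F, and 95% intervals use the t distribution with each gene's total degrees of freedom from the fit. Shares and ratios were tested by exact permutation over libraries (scipy 1.17.1). No library was a copy of another: replicates differed beyond counting noise, with a chi-square of at least 3.75 per degree of freedom.

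The genes and lists were chosen with earlier results of these data known. For each list the text names up to 4 tested genes with the smallest p-values. One gene that this rule picks is not reported here. Genes of chromosome 20 were to be left off the lists because earlier results showed that many have no counts. FKBP1A and GDF5 were kept by mistake. Alternatives were RLE, upper-quartile or no scaling, 2 other filters, a replicate block, DESeq2 1.42.0, limma 3.58.1 (voom, or log2(FPKM + 1) and log2(FPKM + 0.1)), each library left out, and other thresholds. Locations come from GENCODE 29 and start windows from RefSeq (GRCh38.p14). Windows were found for all 10 genes.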

Additional observations from a re-analysis of the deposited data

How the results depend on the processing

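TGFB1, TGFB2, the 3 receptors and LTBP1 kept their direction and their call at an adjusted p under 0.05 under every other scaling, filter, tool or block and with each library left out, with log2 fold changes of -2.71 to -2.31 for TGFB1, -0.68 to -0.25 for TGFB2 and -1.29 to -0.92 for LTBP1. Library size alone shifted all genes by a median log2 of 0.22, and 63.6% of called genes were then higher in KO, against 52.4% with TMM. LTBP3 lost its call with library size alone and with limma on log2(FPKM + 1) or log2(FPKM + 0.1). TGFB3 gained a call as higher with library size alone, with upper-quartile scaling and in at least 1 limma fit. SMAD7 turned to 0.0519 with library size alone, 0.0398 with log2(FPKM + 1) and 0.0425 with log2(FPKM + 0.1). SMAD7 gained a call as lower with RLE, with DESeq2, without the filter on low counts and in at least 1 fit with a library left out. LTBP2 turned to -0.0093 with RLE and -0.0098 with DESeq2, and ranged from -0.0716 to 0.0937 with 1 library left out. The receptor turnover list had 9 called genes in place of 5 with library size alone and with either FPKM fit. When a log2 change of 1 or more either way was also required, 2 of the 10 genes were called, TGFB1 and LTBP1, so that TGFB2, LTBP3 and the 3 receptors were not. The causes were not tested beyond the shift of scale. With 1 library left out 7 to 8 of the 10 genes were called, and 9687 to 10676 of all genes. Same-numbered libraries did not deviate together (r from -0.01 to 0.01). The labels name no pairing, and this check cannot exclude that same-numbered libraries were prepared together. With a replicate block 7 of the 10 genes and 9986 of all genes were called. No share changed direction when lengths were ignored or a library was left out, nor did a ratio when a library was left out. Lengths cannot affect the difference of a ratio between groups. Depth limits TGFB3 most, with 50 to 116 counts a library.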

Other observations

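The genes whose pattern was most like that of 3 of the members were looked up as the smallest distance of centred log2 CPM over the 6 libraries. For TGFB1 these were RABAC1 (distance 0.087, log2 fold change -2.56) and FBLN2, which encodes the matrix protein fibulin 2 (distance 0.205, log2 fold change -2.57). For LTBP1 they were KIF3C (0.057) and KCMF1 (0.062), and for TGFBR3 KIAA0754 (0.096) and SCRN1 (0.124). With 2 groups, such likeness mostly reflects a similar fold change.

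RABAC1 lies on the same chromosome as TGFB1, at positions 41956681 to 41959390 of chromosome 19 (GRCh38), within 1 Mb of it. The neighbours within 1 Mb on each side of every gene were therefore counted, a choice made after these values were seen. Around TGFB1, 42 other genes were tested, of which 21 fell, 15 rose and 6 did not pass (85.7% called, where 76.4% of all genes were), with log2 fold changes from -2.74 to 2.66 and a median of -0.15. Around TGFB2, which fell, all 4 tested neighbours rose (median 1.04). Around TGFBR2 all 3 fell (median -1.10), and around SMAD7 5 of 8 fell and 1 rose (median -0.54). Around LTBP1, which fell, 5 of 10 rose and 3 fell (median 0.16). Around TGFBR1 7 of 13 fell and 4 rose, and around TGFBR3 1 of 10 fell and 5 rose. TGFB3 had 5 of 14 lower and 6 higher, LTBP2 11 of 30 each way, and LTBP3 25 of 68 lower and 28 higher. Among all genes tested, 40.0% were higher and 36.3% lower. Neighbours share a chromosome stretch and are no replicates, and no test was made.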
